A study of Mus musculus with 4 samples.

Results

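The 10 genes described here encode epithelial claudins (Cldn1, Cldn2, Cldn3, Cldn4, Cldn7, Cldn12 and Cldn18), the junction proteins occludin (Ocln) and ZO-1 (Tjp1), and E-cadherin (Cdh1). They were chosen by gene symbol, and all 10 were found among the 24421 genes listed in each library. The study made poly(A) RNA libraries of 4 C57BL/6 mice, animals 139 and 140 with the gene Usp25 intact (Usp25+/+) and animals 826 and 850 lacking it (Usp25-/-). By their labels all were females of 8 weeks. They had 2.5% dextran sulfate sodium (DSS), which damages the lining of the colon, in their water over 5 days and normal water over the last 2 days before the colon was sampled. USP25 is a deubiquitinating enzyme, and the comparison asks how expression differed between the genotypes after that treatment. Which part of Usp25 was removed is not stated in the labels, and untreated animals were not analysed here. Values are FPKM, fragments per kilobase of transcript scaled to the mapped fragments of the library, so that levels of different genes can be set side by side.

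Tight junctions seal the space between neighbouring epithelial cells. Claudins are four-pass membrane proteins whose extracellular loops set which ions cross that seal. Some, such as claudin-2, form cation pores, and others, such as claudin-1, claudin-4 and claudin-18, tighten the barrier. Occludin spans the membrane beside them, ZO-1 ties both to actin, and E-cadherin holds cells together at the adherens junction below. In the gut, claudin-2 is known to mark crypts and to go up in colitis. In the lung, claudin-3, claudin-4 and claudin-18 are the main claudins of the alveolus.

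The transcripts in all 4 libraries went against the labelled tissue and sex. Of 11 colonocyte and goblet markers, 7 were below 1 FPKM in every library, among them Muc2 at no more than 0.193 FPKM, Slc26a3 at no more than 0.124 FPKM and Cdx1 at 0. The 3 most abundant of the list were Car4 at 193 to 399 FPKM, Lgals4 at 7.04 to 70.6 FPKM and Krt20 at 3.11 to 52.4 FPKM, of which Car4 is also known from lung capillaries and the other two from gastric epithelium. The lung genes Sftpc and Nkx2-1 ranged from 339 to 2596 and from 6.70 to 13.7 FPKM. The Y-linked gene Ddx3y ranged from 12.7 to 30.3 FPKM, and Xist stayed at or below 0.110 FPKM. The lung genes were chosen with their values known. Animal 139 stood apart from the other libraries, with 6 neutrophil markers summing to 39973 FPKM, against 695 to 1969 FPKM elsewhere. Usp25 itself matched the genotype labels, with 38.5 and 16.6 FPKM for the Usp25+/+ animals against 2.65 and 1.71 FPKM for the others. Genotype is thus used below as labelled, but no value is read as a measurement of the colon or of DSS treatment.

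2 features of the gene models bear on the values that follow. Cldn3 and Cldn4 are neighbours on chromosome 5 that point away from each other. In mm9, Cldn4 lies on the minus strand from 135420996 to 135422804 and Cldn3 on the plus strand from 135462084 to 135463342, with 39280 bases between their starts, yet their levels differed between libraries in unlike ways. Cldn18 (mm9 chromosome 9, 99589880 to 99617686, minus strand) has alternative first exons, of which one is known from lung and the other from stomach. The annotated starts of its 4 transcripts span 7258 bases, and the files give 1 value for the gene. The 250 bases before the starts of these genes are shown because they belong to the neighbouring pair and to the alternative starts. They are from RefSeq on GRCm38.p6, printed 5′ to 3′ on the strand of the gene, with matches to CAGGTG or TGANTCA on either strand in capitals.
Cldn4, chr5:134946935-134947184, minus strand: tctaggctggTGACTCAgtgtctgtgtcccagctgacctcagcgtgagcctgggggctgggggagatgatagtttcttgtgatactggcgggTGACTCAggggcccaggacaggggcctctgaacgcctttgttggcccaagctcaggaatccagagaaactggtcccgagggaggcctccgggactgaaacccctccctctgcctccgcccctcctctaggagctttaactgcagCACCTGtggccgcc
Cldn3, chr5:134985964-134986213, plus strand: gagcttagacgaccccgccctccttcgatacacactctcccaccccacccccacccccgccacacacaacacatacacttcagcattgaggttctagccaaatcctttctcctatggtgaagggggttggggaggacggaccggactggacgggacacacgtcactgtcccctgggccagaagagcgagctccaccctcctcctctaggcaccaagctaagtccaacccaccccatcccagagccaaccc
Cldn18, upstream start, chr9:99717268-99717517, minus strand: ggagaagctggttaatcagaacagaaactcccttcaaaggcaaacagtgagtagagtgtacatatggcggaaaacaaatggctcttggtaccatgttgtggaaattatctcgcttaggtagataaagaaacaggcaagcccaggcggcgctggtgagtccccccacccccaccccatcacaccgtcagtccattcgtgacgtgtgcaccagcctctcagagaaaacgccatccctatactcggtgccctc
Cldn18, downstream start, chr9:99710064-99710313, minus strand: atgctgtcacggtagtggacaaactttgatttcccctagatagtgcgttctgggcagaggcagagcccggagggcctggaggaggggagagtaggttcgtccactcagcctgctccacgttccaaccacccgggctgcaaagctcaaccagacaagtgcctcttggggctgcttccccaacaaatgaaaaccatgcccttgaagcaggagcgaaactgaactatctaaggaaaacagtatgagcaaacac

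5 motifs were searched on both strands of the 14 such windows that RefSeq gave for 9 of the 10 genes. Cdh1 had no entry. CAGGTG, the E-box that Snail and ZEB repressors bind, was found in 3 windows. These were the Cldn4 window above, with its first base at -14 counted from the start, and the downstream windows of Cldn7 (2 matches) and Ocln (2 matches). It is held by 17.2% of 32851 promoter windows of this length. TGANTCA, the AP-1 motif, was found only in the Cldn4 window among the 14, with matches that begin at -240 and -158, and in 6.75% of all windows. CTCAAG, a core of the NKX2-1 motif, matched 1 Ocln window (13.3% of all windows), and TTTATG, a core of the CDX motif, matched the Cldn2 window (10.8%). AACCNGTT, the motif of grainyhead-like factors, matched none (1.79% of all windows). A match gives only the letters of the window, and these motifs may overlap other motifs that were not searched.

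Most of the 10 genes stood higher in the Usp25-/- libraries, but none passed the test. On log2(FPKM + 1), a scale that understates changes of low genes, 8 of the 10 had a positive log2 fold change, where 53.5% of the 12011 tested genes did. All 10 passed the filter of a mean of at least 1 FPKM. Their median log2 fold change was 0.64, against 0.03 over all tested genes. The libraries of the genotypes did not overlap in 6 genes (33.8% of all tested genes), 5 of them higher (19%) and 1 lower (14.7%) in Usp25-/-. Limma called 0 of 12011 genes at a Benjamini-Hochberg adjusted p of 0.05, which is 0% of those tested. Usp25 itself was thus not called, at a log2 fold change of -3.07 (adjusted p from limma = 0.960). At an unadjusted limma p of 0.05 there were 375 genes (3.12%, of which 2.11% higher and 1.01% lower). That is fewer than the 601 expected if no gene differed. Of the 10 genes, 0 were called, and 2 (Cldn2 and Cldn7, both higher) had an unadjusted p under that level. With 2 libraries in each genotype, no exact permutation test of 1 gene can give a p under 0.33. The 10 genes share their libraries and are not independent of one another.

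**Figure D1:**
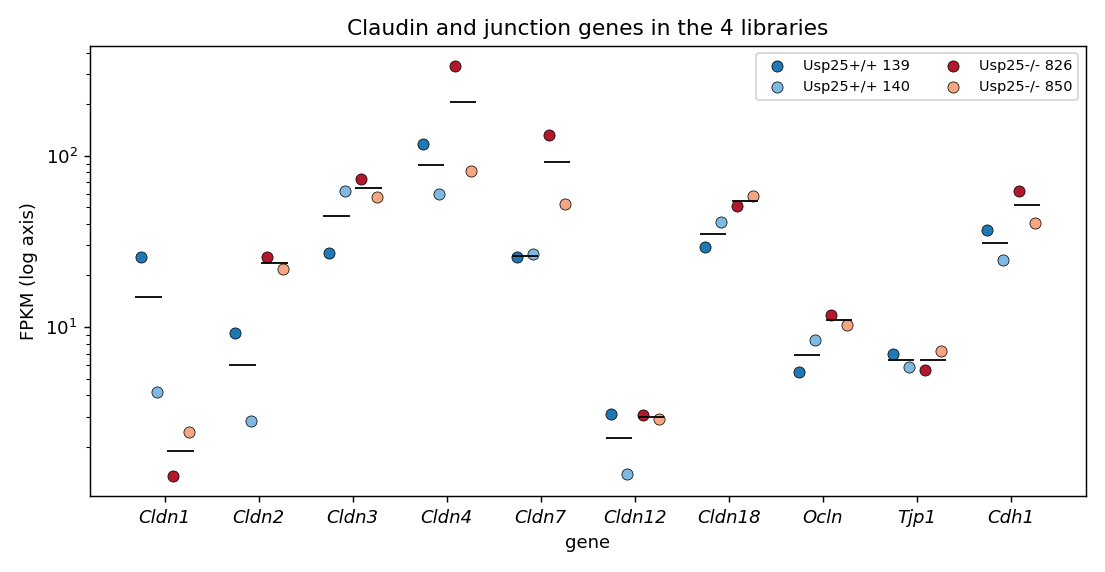
FPKM of the 10 genes in each library on a log axis, with blue points for Usp25+/+ and red points for Usp25-/- animals and a line at the mean of each genotype. Animal 826 holds the highest point in 6 of the 10 genes, and Cldn1 is highest in animal 139.

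Cldn4 was the most abundant member in 3 of the 4 libraries, with 40.8% of the summed FPKM of the 10 genes in animal 139, 47.6% in 826 and 24.5% in 850. In animal 140, Cldn3 stood at 61.9 FPKM beside Cldn4 at 60.1. Cldn12, a claudin without the usual binding motif for ZO proteins, was the lowest member in 139 and 140, and Cldn1 the lowest in 826 and 850. Summed over the 10 genes, the libraries held 286, 237, 697 and 334 FPKM in 139, 140, 826 and 850. Animal 826 was highest in 6 genes, 139 in 2 (Cldn1 and Cldn12) and 850 in 2 (Cldn18 and Tjp1). Over all tested genes, 826 was the highest library in 25.4%.

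Cldn4 and Cldn7 reached their highest levels in 1 Usp25-/- animal, 826. Cldn4, a barrier claudin of many simple epithelia, reached 117 and 60.1 FPKM in animals 139 and 140 (Usp25+/+), and 332 and 81.8 FPKM in 826 and 850 (Usp25-/-). Animal 826 was far above the rest and 850 lay between the Usp25+/+ libraries, so that the genotypes overlapped. The means were 88.4 ± 40.0 and 207 ± 177 FPKM (SD, n = 2 each), and the fitted log2 difference was 0.97 (SE 0.75; adjusted p from limma = 0.960). It was -0.03 without animal 826, 0.50 without 140 and 1.97 without 850. Cldn7, which is known to pair with EpCAM along the lateral membrane, had 25.6 and 26.7 FPKM in the Usp25+/+ pair, and 132 and 52.3 FPKM in the Usp25-/- pair. Both Usp25-/- libraries were above both Usp25+/+ libraries, with 826 the higher of the pair. The log2 fold change was 1.63 (SE 0.50, 95% interval 0.37 to 2.90; adjusted p from limma = 0.960), and 0.97 without 826.

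General epithelial markers were also highest in animal 826. In what follows, the pair of values before "against" is from Usp25+/+ 139 and 140, and the pair after it from Usp25-/- 826 and 850. Epcam, an adhesion protein of epithelia, was listed at 57.8 and 35.8 against 205 and 69.9 FPKM, and the simple-epithelium keratin Krt8 at 252 and 247 against 1067 and 382 FPKM. All 8 markers of the list had a positive log2 fold change, with a median of 1.31, and 7 of them were highest in 826. Their sum was 772, 680, 3117 and 1182 FPKM in 139, 140, 826 and 850. In 139, 140, 826 and 850, the ratio of Cldn7 was 0.102, 0.108, 0.124 and 0.137 to Krt8 and 0.443, 0.745, 0.646 and 0.749 to Epcam. The ratio of Cldn4 was 0.463, 0.243, 0.311 and 0.214 to Krt8 and 2.02, 1.68, 1.62 and 1.17 to Epcam. The genotypes overlapped in the ratio of Cldn7 to Epcam and of Cldn4 to Krt8, and not in the other two. In bulk RNA, more cells of a type and more RNA per cell cannot be told apart. The part of epithelial content in the claudin values was not tested beyond the scaling that follows.

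When each library was scaled to the geometric mean of these 8 markers, most members changed sign. That scaling moved the median of all tested genes from 0.03 to -0.89, and the median of the 10 genes from 0.64 to -0.39. Relative to all genes, the 10 thus stood 0.60 higher before and 0.51 higher after it. Dividing a library by a single factor shifts all its genes by nearly the same log2 amount. This difference could therefore hardly change, and the part of epithelial content in it was not tested. Cldn2 kept a log2 fold change of 1.00 (SE 1.00) and Cldn7 of 0.54 (SE 1.07). Cldn18, Cldn3, Ocln, Cdh1, Cldn12 and Cldn4 turned to values between -0.46 and -0.14, Tjp1 moved to -0.93, and Cldn1 was at -2.78. Epcam is only one of these 8 markers, so a ratio to it is not the same scaling. The ratio of Cdh1 to Epcam was 0.637 and 0.692 in Usp25+/+, 0.305 in 826 and 0.577 in 850. The ratios of Cldn2, Cldn3, Cldn18 and Ocln to Epcam overlapped between the genotypes. For Cldn2 they were 0.160 and 0.0790 in Usp25+/+, 0.126 in 826 and 0.312 in 850. For Ocln they were 0.0942 and 0.234 in Usp25+/+, 0.0572 in 826 and 0.147 in 850.

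**Figure D2:**
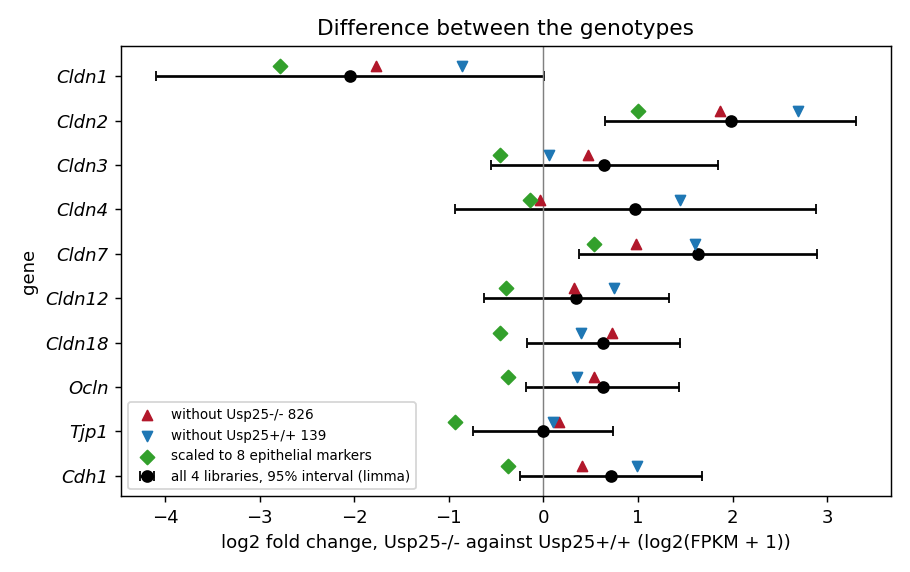
Log2 fold change of each gene on log2(FPKM + 1), Usp25-/- against Usp25+/+, with the 95% interval of limma (black), and the value without animal 826, without animal 139 and after scaling to 8 epithelial markers. Cldn1, Cldn2 and Cldn7 keep their side of 0 in all of these, while Cldn4 sits at 0.97 with all libraries and at -0.03 without 826.

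Cldn2, the cation-pore claudin, had the widest separation between the genotypes among the 10. The Usp25+/+ animals had 9.25 and 2.83 FPKM, and the Usp25-/- animals 25.7 and 21.8 FPKM. The Usp25-/- libraries lay close together and above both Usp25+/+ libraries, which differed from each other more widely. The means were 6.04 ± 4.54 and 23.8 ± 2.76 FPKM (SD, n = 2 each), and the log2 fold change was 1.98 (SE 0.52, 95% interval 0.66 to 3.30; adjusted p from limma = 0.960). It lay between 1.27 (without 140) and 2.69 (without 139) when any 1 library was left out. Cldn2 is X-linked (mm9 positions 136335367 to 136345925, plus strand). Of 5 markers of gastric surface cells, the 4 tested (among them Tff1, Gkn2 and Gkn1) also stood higher in Usp25-/-. The other marker, Muc5ac, stayed at or below 0.504 FPKM in every library and was not tested. The 5 markers summed to 120 and 145 FPKM in Usp25+/+ and to 2790 and 1010 FPKM in Usp25-/-. Of the colonocyte and goblet markers above, Lgals4 stood at 7.04 and 9.83 against 70.6 and 28.8 FPKM, Krt20 at 4.31 and 3.11 against 52.4 and 7.35 FPKM, and Car4, which overlapped, at 193 and 399 against 277 and 367 FPKM. Unlike Cldn2, which stood at nearly the same level in 826 and 850, the gastric sum was higher in 826. Their part in the Cldn2 values was not tested.

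Cldn1 was the member that went the other way. This barrier claudin, needed for the skin barrier and abundant in squamous epithelia, had 25.8 and 4.15 FPKM in the Usp25+/+ animals, and 1.36 and 2.44 FPKM in the Usp25-/- animals. Animal 139 was far above the other libraries, and animal 140 stood a little above the Usp25-/- pair. The means were 15.0 ± 15.3 and 1.90 ± 0.765 FPKM (SD, n = 2 each), and the log2 fold change was -2.05 (SE 0.81, 95% interval -4.09 to 0.00266; adjusted p from limma = 0.960). It was -0.86 without animal 139 and -3.24 without 140. Squamous and basal cell keratins were also high in 139, with Krt5 at 19.0 FPKM there and at 0.130, 0.191 and 0 FPKM in 140, 826 and 850. The 7 markers of that list summed to 61.3, 0.608, 7.31 and 5.81 FPKM in the same order. The neutrophil sums given above were highest in 139 as well. Between 140 and the Usp25-/- pair, Cldn1 and the squamous sum went in opposite directions. The part of either cell type in the Cldn1 values was not tested.

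Cldn18, Ocln and Cldn3 had their lowest value in animal 139. They ranged 1.97-fold, 2.15-fold and 2.71-fold from the lowest to the highest library, less than Cldn4 at 5.52-fold. Cldn18 had 29.4 and 40.8 FPKM in the Usp25+/+ animals, and 50.8 and 57.9 FPKM in the Usp25-/- animals. Its genotypes did not overlap, and the log2 fold change was 0.63 (SE 0.32, 95% interval -0.18 to 1.44; limma adjusted p = 0.960). Occludin stood at 5.45 and 8.36 against 11.7 and 10.3 FPKM, again without overlap, with a log2 fold change of 0.63 (SE 0.32). Without 139 these values became 0.40 for Cldn18 and 0.36 for Ocln. Cldn3 stood at 26.9 and 61.9 against 72.8 and 57.1 FPKM. Only animal 139 was low for Cldn3, and 140 lay above 850, so that its log2 fold change of 0.64 (SE 0.47) became 0.06 without 139 and 1.23 without 140.

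The summed alveolar markers were also lowest in 139. The 7 markers of alveolar type 2 cells summed to 1506 FPKM in 139, and to 3846, 4971 and 4624 FPKM in 140, 826 and 850. The 6 markers of alveolar type 1 cells, which cover the gas exchange surface, summed to 166, 270, 309 and 277 FPKM in that order. Sftpc was at 339 FPKM in 139 and at 1376 FPKM or more elsewhere, and Sftpb and Ager were also lowest in 139. Not every marker followed the sums, as Sftpa1 and Slc34a2 were lowest in 826, Pdpn was second highest in 139, and Abca3 and Sftpd ranged only 1.14-fold and 1.32-fold over the libraries. The gastric surface genes, with a median log2 fold change of 3.55 over 4 tested members, differed far more between the genotypes than Cldn18. Which of its first exons was transcribed cannot be read from a value per gene, and the part of either tissue was not tested.

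The ratio of the neighbours Cldn4 and Cldn3 did not follow the genotype. It was 4.34 in 139, 0.971 in 140, 4.56 in 826 and 1.43 in 850. In 1 library of each genotype Cldn4 was thus more than 4 times as abundant as Cldn3, and in the other library of each the pair stood closer to level. A ratio within a library does not depend on how that library was scaled.

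Cdh1, Tjp1 and Cldn12 completed the set. E-cadherin, the adherens junction cadherin of epithelia, was listed at 36.8 and 24.7 against 62.3 and 40.3 FPKM, with no overlap, and its fitted log2 difference was 0.71 (SE 0.38, 95% interval -0.25 to 1.67; limma adjusted p = 0.960). Animal 850 lay just above 139. The log2 difference was 0.41 without 826, 0.44 without 140, 0.99 without 139 and 1.02 without 850. Tjp1, the ZO-1 scaffold that non-epithelial cells also express, was the most even member at 6.92 and 5.86 against 5.58 and 7.24 FPKM, and its log2 fold change of -0.0022 (SE 0.29) had a 95% interval from -0.74 to 0.74. The interval leaves room for a change in either direction, and the value ran from -0.16 to 0.16 with 1 library left out. Occludin and Tjp1 stood in a ratio of 0.787 in 139, 1.42 in 140, 2.098 in 826 and 1.42 in 850. Cldn12 stood at 3.12 and 1.39 against 3.07 and 2.93 FPKM, where only animal 140 was low, and its log2 fold change of 0.35 (SE 0.38) became -0.04 without 140 and 0.74 without 139.

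**Figure D3:**
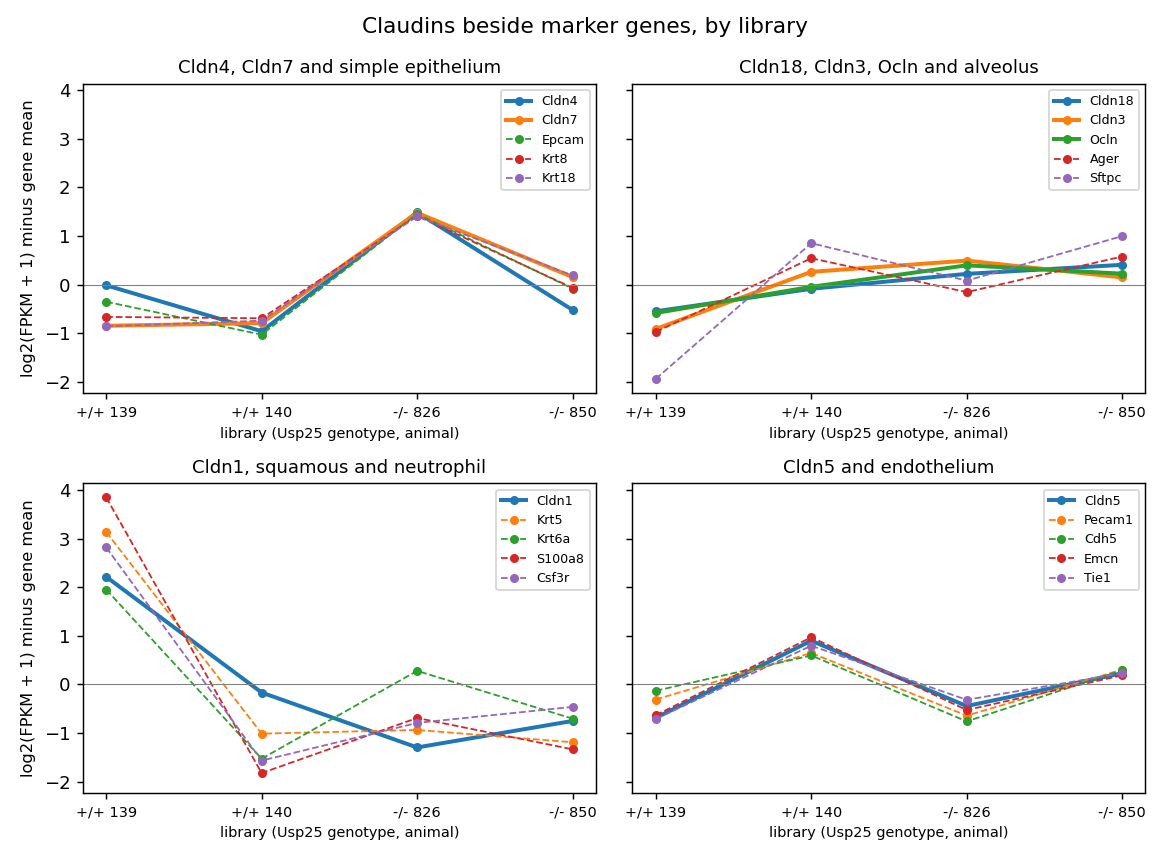
Log2(FPKM + 1) minus the mean of the gene over the 4 libraries, for claudins and occludin (solid) and marker genes (dashed); lines only join the points of a gene. Cldn4 and Cldn7 peak in 826 with Epcam, Krt8 and Krt18, Cldn1 is highest in 139 with Krt5 and S100a8, and Cldn5 is highest in 140 with 4 endothelial genes.

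Other claudins were mostly silent. Of 17 further claudin symbols 16 were found, and 11 of them were below 1 FPKM in every library, 3 of these at 0 throughout. Cldn5, the claudin of endothelial tight junctions, was the most abundant of the rest at 20.8 and 64.3 against 24.7 and 40.1 FPKM, with overlapping genotypes and a log2 fold change of -0.21 (SE 0.60) that ran from -1.01 without 139 to 0.58 without 140 and was 0.13 without 826 and -0.55 without 850. All 6 endothelial markers were likewise highest in 140 and next in 850, such as Emcn at 10.8 and 34.7 against 11.7 and 19.8 FPKM. Emcn and Tie1 were lowest in 139, as Cldn5 was, and the other 4 (Pecam1, Cdh5, Kdr and Tek) were lowest in 826. Cldn6, best known from embryonic epithelia, stood at 3.12 and 1.85 against 24.4 and 3.22 FPKM, so that 826 was far above the rest and 850 barely above 139 (log2 fold change 1.60, SE 0.86, but 0.30 without 826 and 2.89 without 850). Cldn23 was likewise highest in 826, at 3.21 and 2.13 against 13.6 and 1.96 FPKM (0.86, SE 0.78), and turned to -0.29 without it and to 2.00 without 850. Cldn10 stood at 2.34 and 0.476 against 0.228 and 2.40 FPKM, and Cldn15, a cation-pore claudin of the intestine, at 1.55 and 0.936 against 0.549 and 1.19 FPKM. Both overlapped between the genotypes.

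Most other junction genes had positive values, but most of the other claudins did not. In 5 lists of other claudins, tight junction, adherens junction and desmosome genes, 45 of the 62 genes found were tested, and limma called 0 of them at an adjusted p of 0.05 (0% of all tested genes) and 3, all higher, at an unadjusted p of 0.05 (2.11% of all tested genes were higher at that level). Of the 45, 38 had a positive log2 fold change (84.4%, against 53.5% of all tested genes), with a median of 0.36. The genotypes did not overlap in 18, all of them higher in Usp25-/- (40.0%, against 19% of all tested genes). Animal 826 was the highest library in 26 (57.8%, against 25.4%). Of the 5 other claudins tested, 2 had a positive and 3 a negative value, with a median of -0.12. The epithelial markers described above were higher in the same library, and their part in these counts was not tested.

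Membrane proteins of the tight junction other than claudins had a median log2 fold change of 0.41 over 8 tested genes. Cxadr, a virus receptor of the junction, stood at 11.4 and 5.69 against 27.7 and 14.4 FPKM (1.21, SE 0.47). Lsr, or angulin-1, which recruits tricellulin to corners where 3 cells meet, stood at 12.9 and 27.5 against 44.4 and 35.5 FPKM (1.03, SE 0.43). Both, named for their large changes, had genotypes that did not overlap. They were the only 2 of the 8 tested genes of this list that did so. Of all tested genes, 19% were higher without overlap. Cxadr was at 0.76 without 140 or without 826, and Lsr at 0.51 without 139 and 1.55 without 140. F11r, which encodes the adhesion molecule JAM-A, stood at 30.5 and 83.9 against 80.8 and 72.1 FPKM, low in 139 alone, and its value of 0.58 turned to -0.13 without that library and to 1.30 without 140.

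Scaffold and polarity genes had a median log2 fold change of 0.27 over 16 tested members, 14 of them positive (53.5% of all tested genes) and 7 higher without overlap (19% of all tested genes). Crb3, the epithelial Crumbs protein of the apical membrane, was listed at 5.68 and 7.09 against 21.2 and 12.5 FPKM (1.24, SE 0.36). Pard6b, a subunit of the apical PAR complex, stood at 2.85 and 2.38 against 7.98 and 4.51 FPKM (0.96, SE 0.36). Magi1, a scaffold with several PDZ domains, stood at 0.818 and 1.52 against 2.90 and 2.13 FPKM (0.71, SE 0.36). All 3, named for the largest changes of the list, separated the genotypes. Pard6b was at 0.61 without 826 and Magi1 at 0.47 without 139.

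Most adherens junction and desmosome genes also had positive values. Of 10 tested adherens junction genes 9 had a positive log2 fold change (53.5% of all tested genes), with a median of 0.31. The nectin gene Pvrl3 stood at 3.36 and 3.13 against 10.2 and 5.10 FPKM (0.96, SE 0.38) and Pvrl2 at 12.8 and 17.2 against 31.6 and 22.6 FPKM (0.80, SE 0.33). Ctnna1, the alpha-catenin that links cadherin to actin, stood at 60.6 and 53.3 against 92.2 and 68.5 FPKM (0.48, SE 0.32). Without 826, Pvrl3 was at 0.52 and Ctnna1 at 0.26. All 6 tested desmosome genes were highest in 826 (25.4% of all tested genes) and had a median of 0.41. The plakophilins Pkp3 and Pkp2 (0.72 and 0.70) separated the genotypes, at 4.67 and 4.74 against 11.4 and 6.10 FPKM for Pkp3. They were the only 2 of the 6 desmosome genes that did so (19% of all tested genes were higher without overlap). Both were at 0.32 without 826. Dsp, the plaque protein desmoplakin, overlapped (0.41, SE 0.50) and turned to -0.15 without 140, with 0.020 without 826, 0.97 without 139 and 0.80 without 850.

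**Figure D4:**
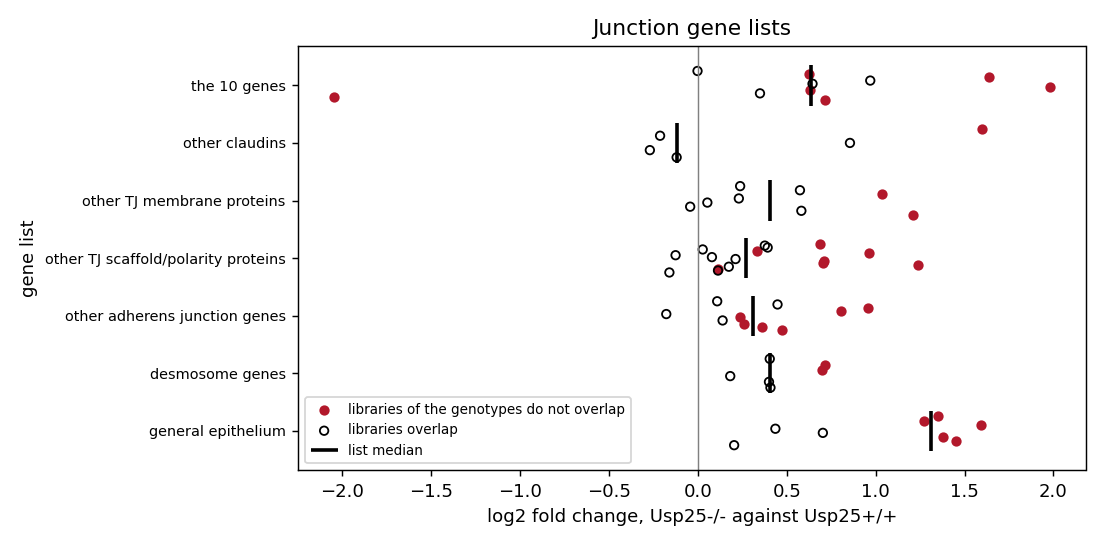
Log2 fold change, Usp25-/- against Usp25+/+, of each tested gene in the 10-gene set, 5 other junction lists (TJ, tight junction) and the epithelial markers, with filled points where the libraries of the genotypes do not overlap and a line at the median of each list. The median of the epithelial markers lies at 1.31, to the right of 0.64 for the 10 genes, and Cldn1 is the point farthest left.

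Genes listed as regulators of Cdh1 split by direction. Snai1, a repressor that binds E-boxes of the Cdh1 promoter, had 11.6 and 6.52 FPKM in the Usp25+/+ animals, and 2.16 and 2.14 FPKM in the Usp25-/- animals. Its fitted log2 difference was -1.63 (SE 0.36; adjusted p from limma = 0.960). The Usp25-/- libraries were nearly equal and below both Usp25+/+ libraries. The repressors Zeb1 and Zeb2 also separated the genotypes (14.7% of all tested genes were lower without overlap). Zeb1 stood at 4.43 and 2.83 against 1.10 and 2.28 FPKM and Zeb2 at 19.4 and 13.8 against 8.88 and 11.2 FPKM. Like Snai1, both were highest in 139, the animal that stood apart in its neutrophil markers, and next in 140. Snai2 stayed below 1 FPKM and Twist1 was listed at 0 in every library. The 5 epithelial factors of the list (Elf3, Ovol2, Esrp1, Grhl2 and Ovol1) all had positive values, of which Ovol2 (0.90, SE 0.46) and Elf3 (1.45, SE 0.63) separated the genotypes (19% of all tested genes were higher without overlap). Ovol2 was at 0.40 without 139 and 1.40 without 140, and Elf3 at 0.72 without 826, 0.89 without 140 and 2.18 without 850. Elf3, Esrp1 and Grhl2 are also among the 8 epithelial markers. None of the 8 tested factors passed the test.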

How the data were processed

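The authors deposited 1 table per library with a gene symbol and a value, which is taken to be FPKM: the submitters' processing notes name Cufflinks, with cutadapt, TopHat2 2.1.1 and mm9. Neither a header nor a label states the unit, and the annotation they counted on is likewise not given. Library totals were 526652 to 565645 FPKM. The genes above 0 numbered 20556 in 139, and 15603, 17242 and 15805 in 140, 826 and 850, so low values and zeros are not equally likely in each library. Whole reads were not recovered, so the depth is unknown and no counting interval is given. Reads carried no strand information, per the labels' protocols, so overlapping genes cannot be told apart.

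Genotypes came from the labels, which name separate animals. Log2(FPKM + 1) was compared with limma 3.58.1 in R 4.3.3 (eBayes with trend, two-sided) over the 12011 genes that averaged 1 FPKM or more, adjusted over all of them by Benjamini-Hochberg at 0.05. A fold change is Usp25-/- against Usp25+/+. Genes named were the 10 members, all tested claudins, the 3 largest changes of each junction or regulator list and at most the 3 most abundant genes of each marker list. Epcam, the other genes named of the marker lists and of the Cdh1 regulators, Nkx2-1, Ddx3y and Xist fall outside this rule and were chosen after their values were seen. Members and lists were chosen with earlier results of these data known. On 20 simulated data sets of 12011 genes for this comparison, limma called 1.19% of the genes changed by 1 log2 unit, 48.7% of those changed by 2 and 96.5% of those changed by 4. False calls made up 214 of its 2157, a larger share than the 0.05 that the adjustment aims at. Each simulated set held 200 changed genes and noise independent between genes, without differences shared by a whole library. These shares may thus not hold for the data, where Gkn1 at a log2 fold change of 4.36 was not called. Gene coordinates are from GENCODE vM1 on NCBIM37 (mm9), and promoter windows from RefSeq on GRCm38.p6.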

Additional observations from a re-analysis of the deposited data

How the results depend on the processing

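No gene was called at an adjusted p of 0.05 under any of 13 alternatives (other pseudocounts, filters, scalings and variance models, or 1 library left out). The 375 genes at an unadjusted p of 0.05 became 569 without the filter on low values and 227 with a mean of at least 5 FPKM. With 1 library left out they ranged from 108 (without 826) to 2593 (without 140), with 578 without 139. The median of the 10 genes ranged from 0.44 to 0.76 with 1 library left out, and the number without overlap from 7 to 9. Leaving a library out can remove an overlap but never create one, so that number could only stay at 6 or rise. The share of all tested genes without overlap was not computed at these settings. Where 1 library remained in a genotype, its spread was taken from the other. Scaling to the epithelial markers reversed that median to -0.39, and reversed Cldn3 (-0.45), Cldn4 (-0.14), Cldn12 (-0.40), Cldn18 (-0.46), Ocln (-0.38), Cdh1 (-0.38), Cldn23 (-0.077), Lsr (-0.048), F11r (-0.52), Magi1 (-0.018), Pvrl2 (-0.26), Ctnna1 (-0.63), Pkp3 (-0.26), Pkp2 (-0.27) and Dsp (-0.47). This scaling divides by genes that stood higher in Usp25-/-, which lowers every other gene. With 1 library left out, the sign turned for Cldn4 (-0.034 without 826, up to 1.97), Cldn12 (-0.044 without 140, up to 0.74), Tjp1 (-0.16 to 0.16, above 0 without 139 or 826), Cldn5 (-1.01 to 0.58, above 0 without 140 or 826), Cldn10 (-0.85 to 0.62, above 0 without 139 or 826), Cldn23 (-0.29 without 826, up to 2.00), F11r (-0.13 without 139, up to 1.30) and Dsp (-0.15 without 140, up to 0.97). Upper-quartile scaling put Tjp1 at 0.0010. The cause of these reversals was not tested. No paired analysis was possible because the animal numbers are not shared between the genotypes. With depth unknown, it cannot be said which low values it limited.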

Other observations

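Claudin symbols outside the lists, chosen after their values were seen, were mostly at or near 0. Of the Cldn34 family, which is numerous in rodents, Cldn34c1 had the highest value, at 1.38 FPKM in animal 140, with 0.494 in 139 and 0 in both Usp25-/- libraries. Cldnd1, a claudin domain protein expressed in many tissues, had 14.5 and 15.7 FPKM in the Usp25+/+ animals, and 26.1 and 19.2 FPKM in the Usp25-/- animals, so that the genotypes did not overlap, as in 33.8% of all tested genes.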
